A study of Mus musculus with 15 samples.

Results

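Liver tumors in which a MYC transgene had been switched off for 72 hours were compared with liver tumors in which it was still on. The comparison took 8 of the 15 arrays of the study, 4 labelled as early tumor regression and 4 labelled as tumor nodules, and the labels alone placed an array in a group. All 8 tissues came from FVB/N mice with both a LAP-tTA and a TRE-MYC transgene, and the other livers from FVB/N mice too. The regressing tumors were from mice that had eaten doxycycline chow at 200 mg/kg until past 8 weeks of age, had then been without it for 8 to 9 weeks, and had been given it again for the last 72 hours. The tumors were from mice with the same history that were not given the drug again. Levels in 4 pre-tumor livers (the same 2 transgenes, 4 to 5 weeks without doxycycline) and in 3 control livers (LAP-tTA alone) are set beside them without a test. The labels give the mice of these livers the same chow until the same age, and give no time without it for the control livers. LAP-tTA makes a transcriptional activator from a promoter known for its activity in hepatocytes, TRE-MYC makes MYC where that activator is bound, and doxycycline prevents the binding. Regressing tumors differed from tumors in the drug as well as in MYC, so the 2 cannot be told apart. The labels do not say whether the 4 arrays of a group came from separate mice, and p-values then measure only the spread between these arrays, which may be technical.

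MYC is a transcription factor that pairs with MAX and binds the E-box, a short motif found near the start of many genes. Its best known targets build ribosomes, make nucleotides and polyamines, run glycolysis and drive cells into division, while MXD proteins compete for MAX and act as repressors. Differentiated hepatocytes secrete plasma proteins and carry out drug, bile acid, urea and glucose metabolism, and fetal hepatoblasts and many liver tumors express alpha-fetoprotein, H19 and Igf2. Tumor tissue also holds vessels, stellate cells and leukocytes.

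A level below is the log2 of a gene's processed Cy3 signal over the 75th percentile of its own array, and a difference is the regressing mean minus the tumor mean with its standard error. Values of a group are given in the order of replicate number. A gene is said to have risen or fallen where limma gave an adjusted p under 0.05 over all genes tested. The share of spots well above background was 61.7% to 68.9% on the regression arrays and 46.4% to 79.0% on the tumor arrays, with tumor 3 the dimmest of all 15, and no spot was saturated. Across genes, which are not independent replicates, the correlation between arrays was 0.892 to 0.947 among regressing tumors, 0.894 to 0.970 among tumors, and 0.825 to 0.897 between one group and the other. Each of the 4 slides held 1 regressing tumor and 1 tumor and was scanned as 1 batch, so every difference could also be taken within a slide. The tissue label was checked on 5 hepatocyte markers, Alb, Ttr, Apoa1, Cps1 and Hnf4a, and each was well above background on every array of both groups.

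MYC was switched in this design through a transgene. The mouse gene Myc was read by 3 probes within it on chromosome 15 of mm9, and they did not move together. Probe A_52_P108346, at 61819528 to 61819587, gave -0.56, -0.24, -0.10 and -0.82 in regressing tumors, against 4.08, 3.66, 4.81 and 4.35 in tumors. Every regressing tumor was below every tumor on this probe, a difference of -4.66 ± 0.50 (adjusted p = 2.79e-05 over all probes). The regressing tumors lay near the control livers, at -0.23, -0.94 and -1.63, while pre-tumor livers were at 2.49, 0.09, 1.72 and 0.20. Probe A_52_P278549, at 61819036 to 61819095, which was the brightest on average and so stands for the gene in the fit, gave 0.50, 2.54, 1.32 and 1.56 in regressing tumors and 0.58, 0.44, 1.22 and 1.01 in tumors. Those ranges overlap, and the difference of 0.67 ± 0.43 did not pass the test (adjusted p = 0.391). Probe A_51_P102096, at 61819627 to 61819687, was well above background in 1 of the 4 tumors and in all 4 regressing tumors, and read -1.38, -1.42, -1.00 and -2.28 in regressing tumors, against -3.25, -3.70, -2.33 and -3.35 in tumors. On that probe the regressing tumors were the higher group (adjusted p = 0.0126 over all probes), and no size is given for it since 3 of the tumors were near background. The labels do not give the sequence of the transgene, and which of the 3 probes read it was not tested.

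**Figure D1:**
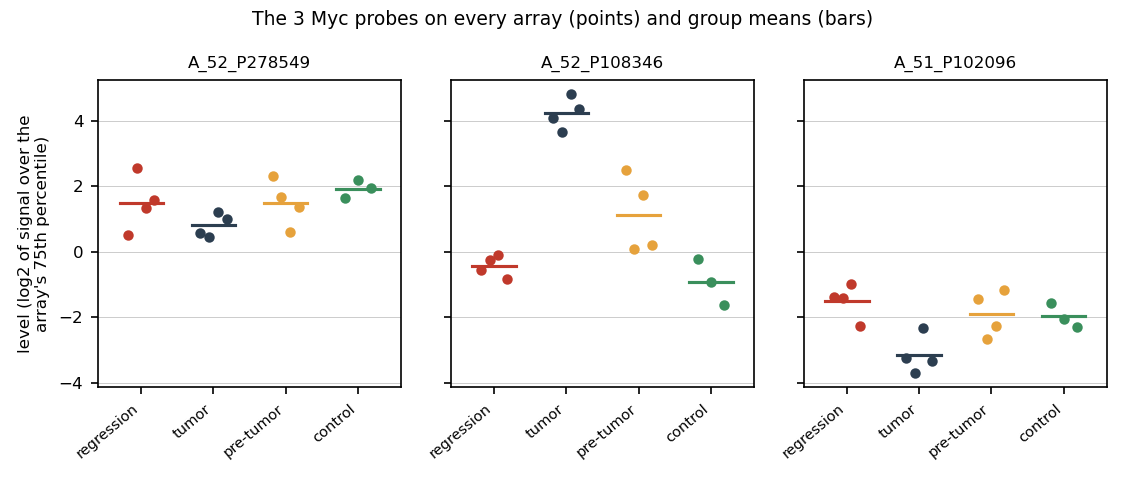
Level of the 3 Myc probes (log2 over the 75th percentile of the array) in regressing tumors, tumors, pre-tumor livers and control livers, with 1 point per array and a bar at the group mean. The 4 regressing tumors lie between -0.82 and -0.10 on A_52_P108346, below the 4 tumors at 3.66 to 4.81, and the order of these groups is turned on A_51_P102096.

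Across the genome 3240 of the 19233 genes tested, 16.8%, differed between regressing tumors and tumors. Of these, 1608 (8.36% of all genes) were higher and 1632 (8.49%) were lower in regressing tumors. At least 2-fold differences were measured for 1573 of the higher and 1582 of the lower genes, and at least 4-fold differences for 675 and 473. The difference had the same sign within all 4 slides for 1516 of the higher and 1602 of the lower genes. The arrays of the groups did not overlap for 4592 genes, 23.9% of those tested, 10.8% with regressing tumors higher and 13.1% with them lower. The median difference over all genes was -0.13, and it was -0.00455 after background correction by normexp, which adds an offset of 50 to each signal, and quantile normalization. Sizes depended on this choice more than calls did: of 28 lists with a median of at least 1 on the log2 scale, 21 had a median over 1.5 times smaller after that correction, and 11 had one in the authors' deposited table. The list "mitosis and cytokinesis" had a median of -2.98, of -0.95 after that correction and of -1.68 in the authors' deposited table. For the list "DNA replication" these were -2.36, -0.76 and -1.33, and for the list "BRCA, checkpoint and DNA repair" -1.78, -0.59 and -1.01. Lists with a positive median shrank unevenly. The 3 values were 1.23, 0.155 and 0.31 for "neutrophils", and 1.89, 0.466 and 0.957 for "bile acid synthesis and transport". They were 2.22, 2.02 and 2.12 for "hepatocyte secreted proteins". Folds and differences below are on the scale of the processed signal. Of all genes, 75 were well above background in every regressing tumor and in no tumor, and 57 of these rose, while 27 were well above background in every tumor and in no regressing tumor, and all 27 fell. The direction of these genes was fixed by how they were picked, so the calls lend it no further support. For 12 such genes named below the fold is given as a bound, "at least", which holds for the processed signal alone: their fitted folds were 1.28 to 3.29 after normexp correction and 1.74 to 7.73 in the authors' deposited table, each under its bound. Of the other genes named as risen, Gpc3, Iigp1, Mmp2 and Mrc1 were well above background in only 1 tumor, Akr1b7, Lcn2, Rdh7, Tek and Vnn3 in 2, and Cdh5, Ces3b, Nkg7, Serpina3c, Slco1b2 and Smox in 3. Of those named as fallen, Dkc1 and Shcbp1 were so in 2 regressing tumors and Ccnb1, Egln3, Knstrn and Lyar in 3, and the sizes given for these genes rest in part on signals near background. The differences of Mrc1 and Tek, for example, were 2.24 and 2.23, and 0.39 and 0.46 after normexp correction. Genes were grouped in 51 lists by function and cell type. The number of measured members of a list that rose or fell is to be read beside 8.36% higher and 8.49% lower among all genes.

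**Figure D2:**
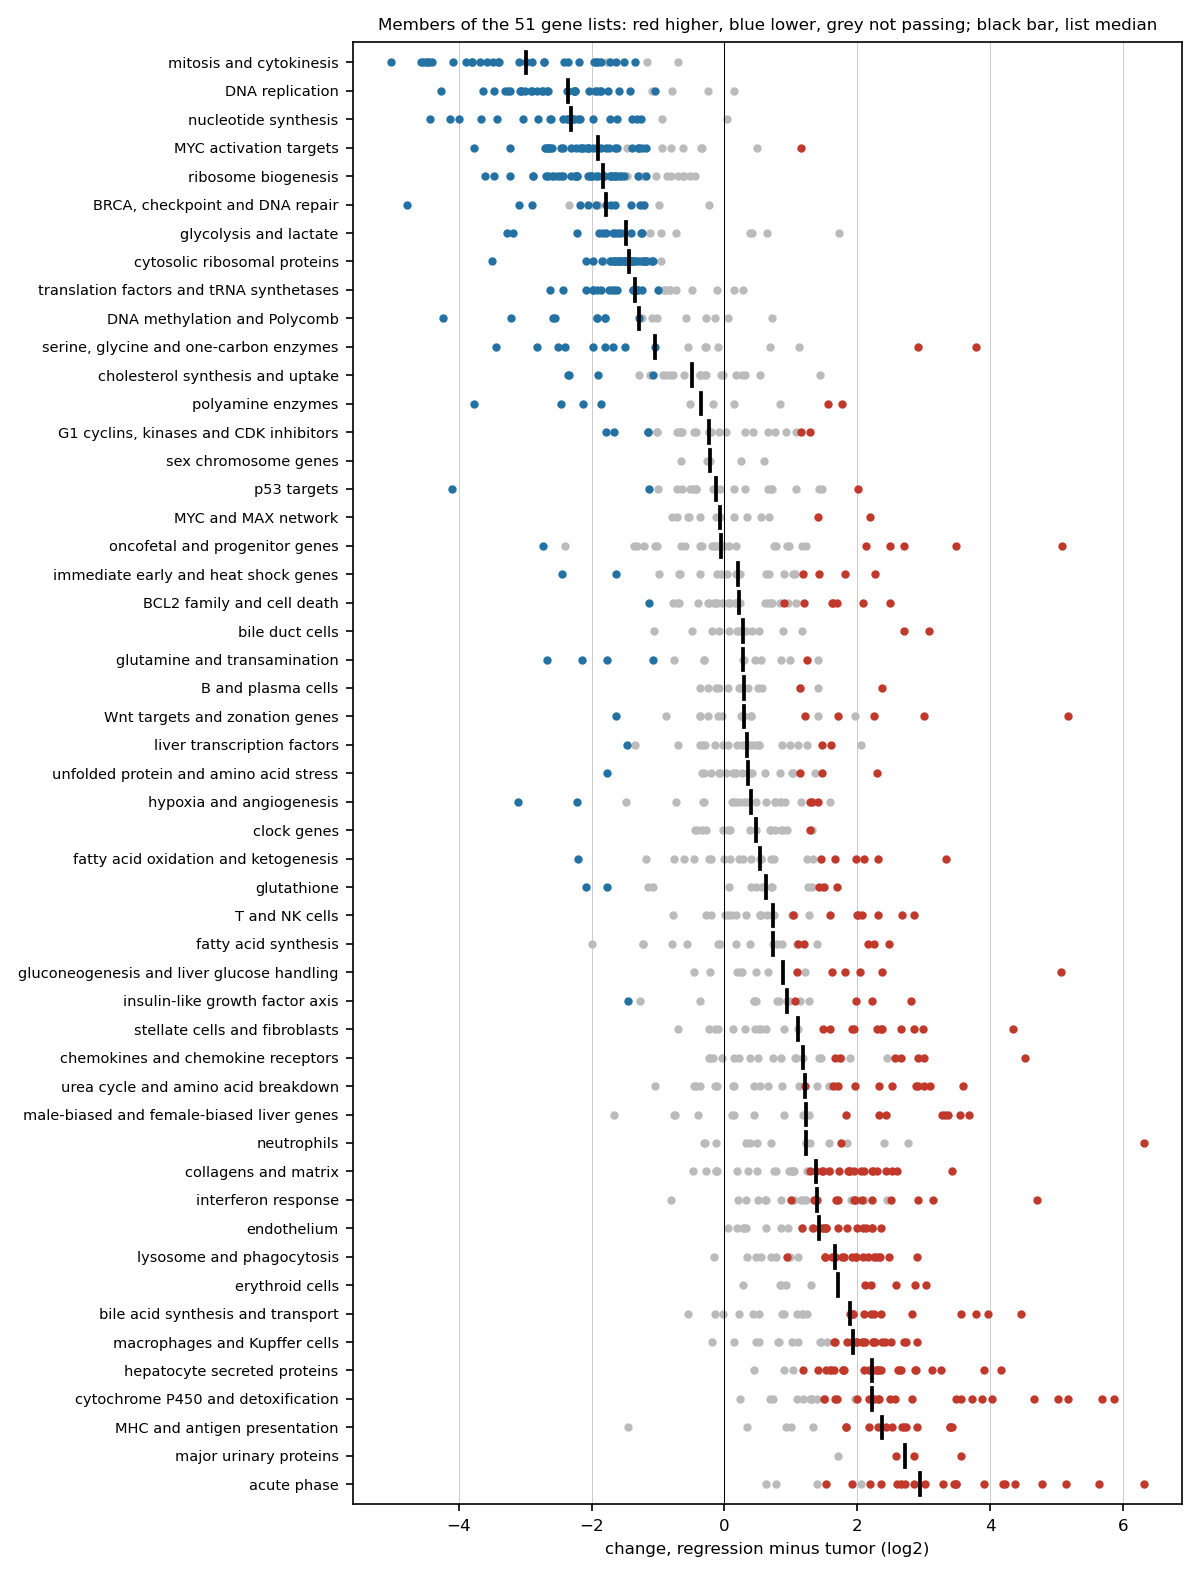
Difference between regressing tumors and tumors (log2, regression minus tumor) for every measured member of 51 gene lists, red where the gene rose, blue where it fell and grey where it did not pass, with a black bar at the median of the list. Mitosis, DNA replication and nucleotide synthesis genes lie at the left end with medians of -2.98, -2.36 and -2.31, and acute phase genes at the right end with a median of 2.94.

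Genes that MYC is known to activate were lower in regressing tumors almost throughout: 32 of 40 measured members fell and 1 rose, with a median difference of -1.91. Srm, which makes spermidine, stood at 1.46, 1.25, 0.92 and 0.56 in regressing tumors, against 4.77, 4.39, 5.39 and 4.68 in tumors. No regressing tumor reached a tumor in this gene, and the difference was -3.77 ± 0.32 (adjusted p = 5.31e-06), a 13.6-fold lower level. Odc1, the rate-limiting enzyme of polyamine synthesis, was at 1.60, 1.28, 1.50 and 1.62 in regressing tumors and at 4.13, 4.17, 3.31 and 4.24 in tumors (adjusted p = 0.000101). The nucleotide exchange factor gene Rcc1 fell by 3.24 and the nucleolin gene Ncl by 2.65 on the log2 scale. Cad, whose product starts pyrimidine synthesis, read 0.76, 1.67, 1.27 and 1.56 in regressing tumors and 2.63, 2.59, 3.04 and 2.55 in tumors, a difference of -1.39 ± 0.40 (adjusted p = 0.0253) with no overlap. The call was lost with the slide as a block (-1.39, adjusted p = 0.0574) and with single arrays left out: without regressing tumor 1 the difference was -1.21 with an adjusted p of 0.0795, and without tumor 1, 2 or 3 or regressing tumor 3 it was -1.41, -1.43, -1.28 and -1.37 with adjusted p between 0.0506 and 0.0629. Ccnd2, a D-type cyclin, was the member that rose, at 0.40 to 1.23 in regressing tumors against -0.91 to 0.24 in tumors, and it lost its call with the slide as a block (1.16, adjusted p = 0.0559), with median centring (1.15, adjusted p = 0.113), and without regressing tumor 1, 2 or 3 or tumor 1 or 4, with differences of 0.96 to 1.15. On every array the mean level of the 40 genes was lower in regressing tumors, at 1.28 to 1.65, than in tumors, at 3.14 to 3.27. Pre-tumor livers were at 1.33 to 1.89 and control livers at 1.52 to 1.62.

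Within the MYC and MAX network, 2 of 13 measured genes rose, both of them MXD repressors, and none fell, beside 8.36% higher and 8.49% lower among all genes. A gene was counted by its brightest probe, which for Myc was A_52_P278549 and did not pass. Its probes A_52_P108346 and A_51_P102096 were called lower and higher. Mxd4 read 0.56, 0.05, -0.05 and -0.31 in regressing tumors, against -1.31, -1.68, -0.76 and -1.62 in tumors, -1.42, -0.63, -0.62 and -1.19 in pre-tumor livers and -0.50, -0.83 and -0.93 in control livers. All regressing tumors were thus above all tumors, by 1.40 ± 0.32 (adjusted p = 0.00622). Mxd1 was at 2.80, 2.06, 2.33 and 2.13 in regressing tumors and at 1.12, 0.83, -1.72 and 0.31 in tumors, also without overlap (adjusted p = 0.0152), and tumor 3 was the lowest of them. The others did not pass, among them Max at -0.13 ± 0.39, Mycn at -0.79 ± 0.49, Mxi1 at -0.72 ± 0.30 and Mlx at -0.55 ± 0.34.

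The E-box CACGTG was searched for in 300-base promoter windows from RefSeq (GRCm38.p6), 250 bases before and 50 after the start of the gene, taking the first window listed for each gene and both strands of a motif that reads the same on both. Such a window was found for 14462 of the 19233 genes. An E-box stood in 94 of 1233 windows of genes that rose (7.62%), in 165 of 1275 windows of genes that fell (12.9%) and in 1273 of all 14462 windows (8.80%). The E2F sites TTTGGCGC and TTTCCCGC, read on both strands, stood in 1.38% of the windows of genes that rose, in 5.57% of those of genes that fell and in 2.41% of all. The AP-1 site TGACTCA stood in 5.84% of the windows of genes that rose, in 2.35% of those of genes that fell and in 4.31% of all. None of these motifs contains another, and a match in a window does not show that a factor is bound there.

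The windows of 4 genes are shown, each 5′ to 3′ on the strand of the gene with the motif in capitals: Apex1 and Cdk4 are the named genes that fell with the most E-boxes, Mcm6 is the one with the most E2F sites, and Mxd4 is a network member that rose.
Apex1 lies at chr14:50924699-50924998 on the plus strand, and its 3 E-boxes begin at -24, 1 and 22 from the start.
Cdk4 lies at chr10:127063285-127063584 on the plus strand and has 4, at -172, -118, -98 and -11.
The window of Mcm6 is at chr1:128359656-128359955 on the minus strand, with E2F sites at -110 and -47, and that of Mxd4 is at chr5:34187661-34187960 on the minus strand, with 1 E-box at -219.
Apex1: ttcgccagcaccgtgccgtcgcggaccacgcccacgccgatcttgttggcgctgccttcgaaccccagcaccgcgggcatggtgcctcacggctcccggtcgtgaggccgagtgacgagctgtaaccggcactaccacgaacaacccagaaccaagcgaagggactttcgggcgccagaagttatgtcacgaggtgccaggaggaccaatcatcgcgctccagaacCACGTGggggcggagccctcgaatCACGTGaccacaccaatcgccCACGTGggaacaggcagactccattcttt
Cdk4: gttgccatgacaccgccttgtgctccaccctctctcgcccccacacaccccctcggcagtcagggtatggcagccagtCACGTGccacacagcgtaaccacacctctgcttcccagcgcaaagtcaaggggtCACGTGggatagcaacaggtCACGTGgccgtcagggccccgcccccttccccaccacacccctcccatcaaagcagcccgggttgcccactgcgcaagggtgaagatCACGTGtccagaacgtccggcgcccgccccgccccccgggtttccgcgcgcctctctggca
Mcm6: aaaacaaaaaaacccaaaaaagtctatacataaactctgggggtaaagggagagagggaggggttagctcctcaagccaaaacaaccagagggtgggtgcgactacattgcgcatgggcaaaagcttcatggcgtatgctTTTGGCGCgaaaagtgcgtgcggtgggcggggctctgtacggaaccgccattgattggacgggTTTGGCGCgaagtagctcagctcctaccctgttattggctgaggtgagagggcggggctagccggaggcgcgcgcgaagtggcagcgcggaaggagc
Mxd4: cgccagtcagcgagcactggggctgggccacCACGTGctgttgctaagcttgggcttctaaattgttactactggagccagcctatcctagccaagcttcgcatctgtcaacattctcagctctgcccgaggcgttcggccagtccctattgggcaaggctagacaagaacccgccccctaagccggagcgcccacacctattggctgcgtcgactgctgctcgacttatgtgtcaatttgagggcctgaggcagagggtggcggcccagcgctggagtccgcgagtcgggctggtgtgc

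Apex1, the gene of the first sequence, read 1.96, 1.71, 1.83 and 1.31 in regressing tumors, against 4.57, 4.36, 4.30 and 4.39 in tumors, a difference of -2.70 ± 0.35 (adjusted p = 0.000109). The tumors were close to each other and above every other array of the study. Cdk4, which encodes a kinase that starts the cell cycle, read 3.33, 3.25, 2.68 and 2.18 in regressing tumors and 4.91, 4.55, 4.64 and 4.47 in tumors, a difference of -1.78 ± 0.35 (adjusted p = 0.00257). Control livers were at 2.19, 1.48 and 1.31, and 3 of the 4 regressing tumors stayed above them.

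The machinery that builds ribosomes was lower in regressing tumors. Of 48 ribosome biogenesis genes 37 fell and 0 rose, with a median of -1.82 and with every difference negative. Nhp2, a protein of the small nucleolar RNPs that modify ribosomal RNA, was at 0.91, 0.48, 0.72 and -0.27 in regressing tumors, against 3.84, 3.80, 4.81 and 3.82 in tumors (adjusted p = 3.51e-05). This was the largest difference of the list, -3.61 ± 0.40, and tumor 3 was the highest of the tumors. Dkc1, the pseudouridine synthase of the same particle, gave -3.21, -3.80, -3.91 and -3.91 in regressing tumors and -0.48, -0.55, -0.88 and 0.02 in tumors, a difference of -3.23 ± 0.32 (adjusted p = 1.14e-05). Lyar, a nucleolar protein, and Npm3, a nucleoplasmin, differed by -3.47 ± 0.39 and -2.88 ± 0.32. The mean level of the list was -0.11 to 0.56 in regressing tumors, 1.84 to 2.35 in tumors, 0.14 to 0.95 in pre-tumor livers and 0.18 to 0.70 in control livers.

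Of 42 genes of cytosolic ribosomal proteins 34 fell and 0 rose, and all 42 differences were negative, with a median of -1.44. Rpl11 read 4.34, 4.50, 4.25 and 3.73 in regressing tumors, against 5.79, 5.50, 6.25 and 5.56 in tumors, 4.36, 4.44, 4.86 and 4.27 in pre-tumor livers and 4.27, 4.25 and 4.83 in control livers. The regressing tumors thus lay near the non-tumor livers and below every tumor, with a difference of -1.58 ± 0.30 (adjusted p = 0.00174), but as the mean of its 2 probes the difference was -0.79 and did not pass. Rpl13 and Rpl27 differed by -1.65 ± 0.28 and -1.71 ± 0.33, and Rpl14 by -3.50 ± 0.39. The count of 34 became 13 with median centring, 21 with the slide as a block, 20 without tumor 1 and 19 without regressing tumor 4, and cross-hybridisation with the many processed copies of these genes was not tested. Among 31 translation factor and tRNA synthetase genes 20 fell and 0 rose, with a median of -1.34. The glycyl-tRNA synthetase gene Gars was at -0.74, -0.81, -1.61 and -1.32 in regressing tumors and at 1.50, 1.67, 0.64 and 1.41 in tumors, without overlap, and Kars, Iars and the initiation factor subunit Eif2b1 fell by 2.63, 1.98 and 1.97 on the log2 scale.

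Among the metabolic lists, nucleotide synthesis had the highest share of lower genes: 22 of 24 members fell and 0 rose, with a median of -2.31. Dut, which removes dUTP, read -1.01, -1.60, -0.99 and -1.24 in regressing tumors, against 3.03, 3.24, 3.43 and 3.18 in tumors. The tumors stood apart from all other arrays, since pre-tumor livers were at -1.41, -0.31, -0.14 and -1.11 and control livers at -1.40, -1.35 and -1.54, and the difference was -4.43 ± 0.32 (adjusted p = 1.87e-06). Impdh1, the first enzyme of guanine nucleotide synthesis, was at -2.31, -3.00, -2.04 and -2.37 in regressing tumors and at 1.26, 0.96, 3.21 and 1.39 in tumors, 17.6-fold lower in regressing tumors. Tyms, which makes thymidylate, read -1.12, -1.21, -1.88 and -1.29 in regressing tumors and 1.76, 1.75, 0.63 and 1.58 in tumors (adjusted p = 4.88e-05), and the salvage kinase gene Uck2 differed by -3.43 ± 0.33. Atic, which closes the purine ring, was well above background in every tumor and in no regressing tumor, at -1.57, -1.54, -1.59 and -1.48 in tumors, and its level in regressing tumors was at least 3.76-fold lower on the processed signal (adjusted p = 6.9e-06). The fitted fold of Atic was 1.28 after normexp correction and 1.74 on the values that the authors' deposited table gives.

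One-carbon genes split by direction, with 9 of 17 lower and 2 higher. Mthfd1l, of the mitochondrial folate path, was at -1.59, -2.52, -1.58 and -1.74 in regressing tumors, against 1.76, 1.86, 1.24 and 1.46 in tumors, a difference of -3.43 ± 0.30 (adjusted p = 5.31e-06). Phgdh, the first enzyme of serine synthesis, gave 0.11, 1.62, 0.68 and 0.54 in regressing tumors and 2.85, 2.80, 4.35 and 2.97 in tumors, and Mthfd2 fell by 2.83. Neither overlapped. The 2 genes that rose are enzymes of mature liver. Aldh1l1, the cytosolic formyltetrahydrofolate dehydrogenase, read 3.88, 4.54, 4.29 and 3.89 in regressing tumors, against 0.46, 0.16, 1.17 and -0.35 in tumors, 6.04, 5.58, 7.87 and 5.89 in pre-tumor livers and 6.67, 5.52 and 5.20 in control livers. Betaine methyltransferase, Bhmt, read 5.46, 6.42, 5.65 and 5.00 in regressing tumors and 3.14, 2.56, 2.93 and 2.20 in tumors (adjusted p = 0.00063). Polyamine genes also split: Srm, Odc1, spermine synthase (Sms, -1.86 ± 0.35) and 1 other of 10 fell, and spermine oxidase (Smox, 1.56 ± 0.30) and 1 other rose.

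Glycolysis was lower in regressing tumors, with 13 of 20 measured genes lower, 0 higher (1 without tumor 4) and a median of -1.48. Eno1, the enolase of most growing cells, read 2.79, 1.85, 2.35 and 1.34 in regressing tumors, against 5.31, 4.79, 6.17 and 4.78 in tumors, a difference of -3.18 ± 0.46 (adjusted p = 0.000244). The lactate exporter gene Slc16a3 was at -1.32, -1.11, -1.07 and -0.83 in regressing tumors and at 1.76, 2.07, 2.62 and 2.33 in tumors, a 9.7-fold lower level, and here too no arrays overlapped. Pkm, the pyruvate kinase of tumors and growing tissue, read 3.56, 2.70, 2.27 and 2.42 in regressing tumors and 4.78, 4.88, 3.94 and 4.92 in tumors (adjusted p = 0.00333), against 0.07 to 0.59 in control livers, so that regressing tumors stayed above control livers. Hk2, a hexokinase low in normal liver, was at -2.12, -2.61, -1.59 and -2.17 in regressing tumors and at -0.12, -1.53, 0.70 and -0.44 in tumors (adjusted p = 0.0217), and it did not pass without tumor 1 (-1.70), tumor 3 (-1.43) or regressing tumor 2 (-1.62). Ldha, which makes lactate, was at 5.45 to 5.90 in regressing tumors and at 6.38 to 7.30 in tumors (adjusted p = 0.0228), and did not pass with the slide as a block (-1.25), with median centring (-1.26), without tumor 1 (-1.22), 2 (-1.22) or 3 (-1.12), or without regressing tumor 2 (-1.17) or 4 (-1.17). The pyruvate kinase of mature liver, Pklr, did not pass, at 0.47 ± 0.45 (adjusted p = 0.621).

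Of 14 genes of gluconeogenesis and glucose handling in liver 6 rose and 0 fell. Fbp1, a fixed step of gluconeogenesis, read 4.55, 3.97, 4.48 and 3.84 in regressing tumors, against -1.10, -1.59, 0.44 and -1.18 in tumors, 5.94, 5.12, 7.02 and 5.79 in pre-tumor livers and 6.08, 5.76 and 6.35 in control livers. It was 33.5-fold higher in regressing tumors than in tumors (adjusted p = 5.9e-06), and the regressing tumors were below every pre-tumor and control liver. Gckr, which restrains glucokinase, rose by 1.82 ± 0.39. The count of 6 became 2 with median centring and 3 with the slide as a block or without tumor 4. Of 15 glutamine and transamination genes 4 fell and 1 rose (3 to 5 and 0 to 3 over all alternatives), and the median difference was 0.27. Among the fallen was the glutamine importer gene Slc1a5, at 1.37, 1.36, 0.37 and 0.26 in regressing tumors and 3.99, 3.79, 2.17 and 4.12 in tumors (adjusted p = 0.00169). Asns, asparagine synthetase, was at 2.00, 2.11, 1.94 and 2.05 in regressing tumors and at 3.75, 3.76, 4.22 and 3.45 in tumors, both above the control livers, at -0.39, 0.51 and 0.63. The liver glutaminase gene Gls2 did not pass (0.30 ± 0.44, adjusted p = 0.793), nor did Glul, glutamine synthetase (1.40 ± 0.47, adjusted p = 0.0533). Glul passed under 10 of 21 alternatives, with differences of 1.23 to 1.78 over all of them, and Gls2 under 0.

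Genes of mitosis and DNA replication were lower in regressing tumors. Of 35 mitosis genes 32 fell and 0 rose (median -2.98), and of 36 replication genes 32 fell and 0 rose (median -2.36). Birc5, survivin, which acts at the centromere, read 1.96, 2.10, 2.21 and 1.74 in regressing tumors, against 6.72, 6.99, 5.96 and 6.47 in tumors. The spread within either group was far smaller than the gap between them, and the difference was -4.53 ± 0.33 (adjusted p = 1.87e-06), a 23.1-fold lower level in regressing tumors. The kinase gene Aurka was at -1.21, -2.17, -1.84 and -2.05 in regressing tumors and at 2.68, 2.64, 2.89 and 2.48 in tumors, and the cyclin gene Ccnb1 at -3.12, -4.60, -2.45 and -2.93 in regressing tumors and 0.70, 0.82, 1.92 and 1.08 in tumors. Neither overlapped, and they differed by -4.49 ± 0.56 and -4.41 ± 0.52. Cdk1, the kinase that starts mitosis, was well above background in all 4 tumors, at 0.98, 0.78, 1.49 and 0.66, and in no regressing tumor, which gives a level at least 21.6-fold lower in regressing tumors on the processed signal (adjusted p = 5.31e-06). The same held for Bub1, a spindle checkpoint kinase, at least 15.6-fold lower, for Aurkb, at least 6.4-fold lower, for Aunip, a partner of Aurka, at least 14.3-fold lower, and for Dtl, which marks licensing factors for destruction, at least 13.2-fold lower. After normexp correction Cdk1 was 2.29-fold lower, Bub1 1.92-fold, Aurkb 1.41-fold, Aunip 1.86-fold and Dtl 1.87-fold, so that the bounds did not hold on that scale. Mki67, the usual marker of dividing cells, read -1.00, -0.80, -0.27 and -0.69 in regressing tumors, against 1.78, 1.86, 1.78 and 1.27 in tumors, -1.30, -1.92, -2.92 and -2.19 in pre-tumor livers and -4.53, -1.40 and -2.57 in control livers. Regressing tumors were below all tumors, with a difference of -2.36 ± 0.52 (adjusted p = 0.00513), and above all pre-tumor and control livers.

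Among replication genes, Mcm6 of the replicative helicase, the third sequence above, was at -0.34, -0.61, 0.18 and -0.39 in regressing tumors and at 4.18, 3.96, 4.20 and 3.56 in tumors, a difference of -4.26 ± 0.47 (adjusted p = 3.01e-05). Mcm5, Mcm7 and the clamp loader gene Rfc4 fell by 3.06, 2.83 and 2.74, each without overlap between the groups. The mean level of the mitosis list was -1.95 to -1.50 in regressing tumors, against 1.06 to 1.35 in tumors, and it was -2.38 to -1.40 in pre-tumor livers and -2.29 to -1.86 in control livers. Of 17 genes of repair by recombination and of checkpoints 12 fell and 0 rose. Brca1 fell by 3.10 and Parp1, which senses strand breaks, by 2.06. Of 17 genes of DNA methylation, Polycomb and chromatin packing 9 fell and 0 rose. Uhrf1, which brings the maintenance methyltransferase to new DNA, was at -1.54, -1.94, -2.12 and -1.48 in regressing tumors, against 2.39, 2.73, 2.15 and 2.62 in tumors, -1.60, -1.19, -1.16 and -1.21 in pre-tumor livers and -1.59, -1.21 and -1.94 in control livers. Its difference was -4.24 ± 0.28 (adjusted p = 1.87e-06), and Hmga1, Hmgb2 and the Polycomb methyltransferase gene Ezh2 differed by -3.21 ± 0.45, -2.56 ± 0.40 and -1.92 ± 0.29. In whole tissue a lower share of dividing cells and less RNA of these genes per cell cannot be told apart.

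**Figure D3:**
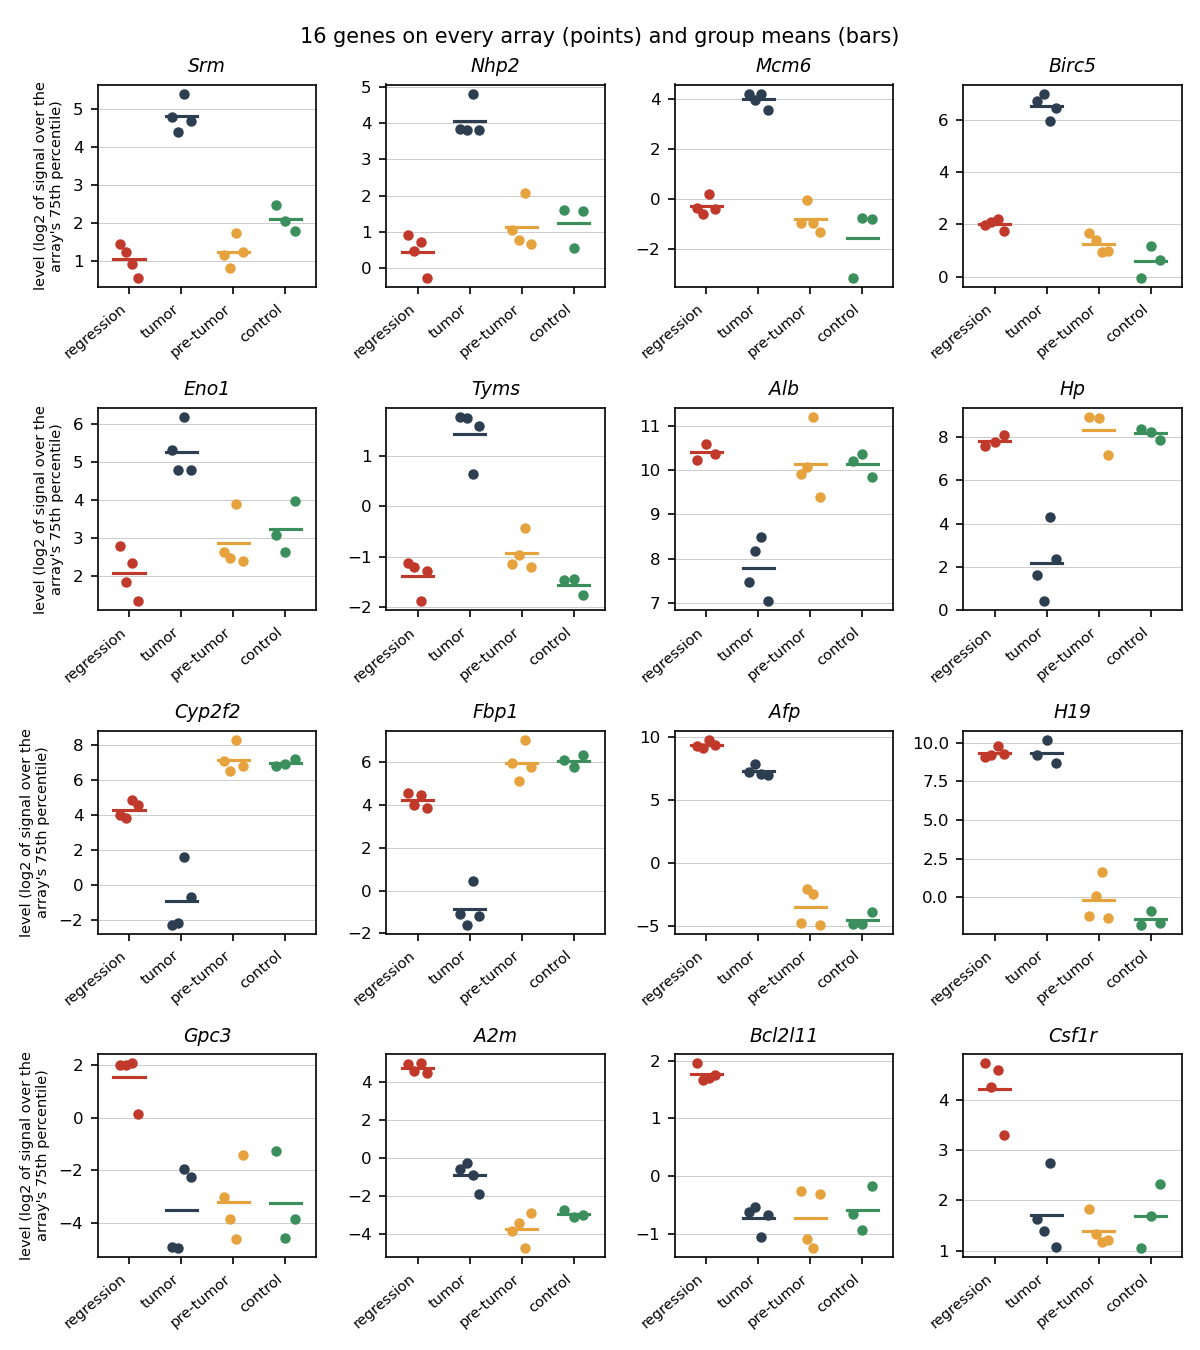
Levels of 16 genes (log2 over the 75th percentile of the array) in regressing tumors, tumors, pre-tumor livers and control livers, with 1 point per array and a bar at the group mean; spots marked as outliers have no point. Srm, Nhp2, Mcm6, Birc5, Eno1 and Tyms are lower and the others, except H19, higher in the 4 regressing tumors than in the 4 tumors, and Afp and H19 are far above both kinds of liver in regressing tumors and tumors alike.

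Of 25 genes of G1 cyclins, kinases and inhibitors 4 fell and 2 rose, beside 8.49% lower and 8.36% higher among all genes. The lower count was 2 with median centring, and the higher count was 1 without tumor 1 or 2 or as the mean of a gene's probes, and 0 with the slide as a block, with median centring, or without tumor 4 or regressing tumor 1, 2 or 3. Ccne2, a cyclin of the G1 to S step, was at -0.14, -0.48, -1.31 and -0.46 in regressing tumors and at 1.12, 1.05, 0.24 and 1.83 in tumors (adjusted p = 0.00824). Ccnd1 read 1.11, 0.31, 2.09 and 1.96 in regressing tumors and 2.66, 2.42, 2.50 and 0.48 in tumors, with tumor 4 far below the other tumors, and did not pass (adjusted p = 0.542). The inhibitor genes Cdkn1a, at 0.66 ± 0.52, and Cdkn1b, at -0.24 ± 0.42, did not pass either (adjusted p = 0.506 and 0.837). Of 20 p53 targets 1 rose and 2 fell, and Gtse1, a fallen member expressed in G2, was at least 4.62-fold lower in regressing tumors. With 1 array left out, 0 of them rose without tumor 1 or 2 or regressing tumor 4, 2 rose without tumor 4 or regressing tumor 1, and 1 fell without tumor 1 or 4 or regressing tumor 2, 3 or 4. With the slide as a block 0 rose and 1 fell.

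Genes of the BCL2 family and of cell death were 7 higher and 1 lower of 30. Bcl2l11, the BH3-only killer protein BIM, read 1.95, 1.66, 1.71 and 1.75 in regressing tumors, against -0.63, -0.53, -1.06 and -0.67 in tumors, -0.25, -1.08, -1.24 and -0.30 in pre-tumor livers and -0.66, -0.93 and -0.17 in control livers. The 4 regressing tumors were the 4 highest of the 15 arrays, and the difference was 2.49 ± 0.31 (adjusted p = 8.15e-05), a 5.61-fold higher level. Bcl2l1, which encodes the survival protein BCL-XL, was at 5.93, 5.87, 5.45 and 5.22 in regressing tumors and at 4.64, 3.70, 2.84 and 2.96 in tumors, also higher without overlap (adjusted p = 0.0045). Casp8, the caspase of death receptors, and Casp1, that of inflammasomes, rose by 1.63 ± 0.44 and 1.62 ± 0.43. Without regressing tumor 1 the differences were 1.41 and 1.34 and did not pass (adjusted p = 0.0545 and 0.0543), and neither did Casp8 after normexp correction (0.53). The 7 higher genes became 4 with the slide as a block or without tumor 1 or 2, and 3 without regressing tumor 1. Bax, a p53 target, fell by 1.14 (adjusted p = 0.0225), but did not pass with the slide as a block (-1.14, adjusted p = 0.0634), with median centring (-1.15, adjusted p = 0.0729), or without tumor 1 (-1.12), tumor 4 (-1.09) or regressing tumor 2 (-1.12), 3 (-1.09) or 4 (-0.98).

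Hepatocyte products were higher in regressing tumors. Of 30 genes of secreted plasma proteins 27 rose and 0 fell, and all 30 differences were positive, with a median of 2.22. Alb, albumin, read 10.24, 10.60 and 10.37 in the 3 regressing tumors whose spot was not marked as an outlier, against 7.47, 8.17, 8.50 and 7.04 in the 4 tumors. Those regressing tumors lay within the range of the pre-tumor livers, 9.40 to 11.20, and 2.61 ± 0.44 above the tumors (adjusted p = 0.000992), and control livers were at 9.84 to 10.36. The clotting factor IX gene F9 was at 3.11, 3.14, 2.32 and 2.77 in regressing tumors and at -1.87, -1.10, -1.46 and -0.89 in tumors, 18-fold higher (adjusted p = 5.9e-06), and control livers were at 4.10, 3.55 and 3.45. Itih1, a protease inhibitor chain, and C8a, of the complement attack complex, rose by 3.91 ± 0.38 and 2.88 ± 0.32. The corticosteroid carrier gene Serpina6 read 6.15, 6.92, 6.75 and 6.76 in regressing tumors, against 4.02, 3.97, 4.18 and 3.93 in tumors, 4.69 to 6.23 in pre-tumor livers and 5.16 to 5.58 in control livers, so that 3 of the 4 regressing tumors were above every other array.

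Acute phase genes, which the liver makes in inflammation, had the highest median of any list, 2.94, with 21 of 26 higher and 0 lower. Lcn2, which binds bacterial siderophores, read 4.57, 4.29, 5.05 and 5.00 in regressing tumors, against -2.85, -4.30, 2.03 and -1.26 in tumors. The tumors were widely spread, with tumor 3 highest, yet none reached a regressing tumor, and the difference was 6.32 ± 1.03 (adjusted p = 0.000619). Haptoglobin, Hp, was at 7.58, 7.75 and 8.10 in the 3 regressing tumors with a value and at 1.61, 0.41, 4.31 and 2.35 in tumors (adjusted p = 0.000163). Ceruloplasmin, Cp, was at 5.91, 6.12, 6.03 and 6.30 in regressing tumors and at 0.29, 0.36, 3.83 and 0.75 in tumors, and tumor 3 again stood far above the other tumors. Hpx, which binds heme, Serpina3m and C4b rose by 4.19 ± 0.52, 4.38 ± 0.40 and 3.02 ± 0.39. The list's mean level was 3.16 to 4.43 in regressing tumors and -0.02 to 2.12 in tumors, against 4.81 to 6.35 in pre-tumor livers and 5.17 to 6.04 in control livers, and no regressing tumor reached a non-tumor liver.

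The major urinary protein genes, near-identical copies whose probes may read each other, were uneven. Mup1 read 6.55, 5.75, 8.93 and 2.69 in regressing tumors, against 2.49, 3.26, 0.07 and 3.87 in tumors, 10.54, 10.95, 11.81 and 10.26 in pre-tumor livers and 11.58, 10.89 and 11.69 in control livers. Regressing tumor 3 was the highest and regressing tumor 4 lay among the tumors, so that the groups overlapped, at 3.56 ± 1.01 (adjusted p = 0.0226). Without regressing tumor 3 the difference was 2.57 and did not pass (adjusted p = 0.0762), nor did it without tumor 3 (2.77), without regressing tumor 1 (3.37) or in a fit of the 8 tumor arrays alone (3.56). Mup5 and Mup4 differed by 2.85 ± 0.87 and 2.59 ± 0.85, but by 1.73 and 1.65 without regressing tumor 3. Of the 4 measured genes 3 passed, but 1 after normexp correction or without tumor 1, 2 or 4, and 0 in the fit of those 8 arrays or without tumor 3 or regressing tumor 1 or 3.

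Genes of drug metabolism were 23 higher and 0 lower of 34, with a median of 2.23. Cyp2f2, a P450 of the periportal hepatocyte, read 4.00, 3.80, 4.84 and 4.53 in regressing tumors, against -2.26, -2.18, 1.59 and -0.71 in tumors, 7.06, 6.47, 8.25 and 6.79 in pre-tumor livers and 6.78, 6.89 and 7.18 in control livers. It was 36.3-fold higher in regressing tumors than in tumors (adjusted p = 0.000106), and each regressing tumor was below each non-tumor liver. Cyp2a12, a steroid hydroxylase, was well above background in every regressing tumor, at 1.53, 1.95, 2.26 and 1.20, and in no tumor, at least 25.3-fold higher (adjusted p = 1.98e-06). The carboxylesterase genes Ces3b and Ces1d rose by 5.69 ± 0.51 and 4.66 ± 0.40, and Ces2f, which no tumor showed above background, was at least 5.73-fold higher. Aldehyde oxidase 3, Aox3, was at 2.59, 2.61, 4.08 and 3.53 in regressing tumors and at -2.49, -2.02, -1.01 and -1.79 in tumors, a difference of 5.03 ± 0.44 (adjusted p = 5.31e-06). The mean level of the list, 1.63 to 2.75 in regressing tumors and -0.76 to 0.06 in tumors, was 4.32 to 5.61 in pre-tumor livers and 4.23 to 4.85 in control livers.

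**Figure D4:**
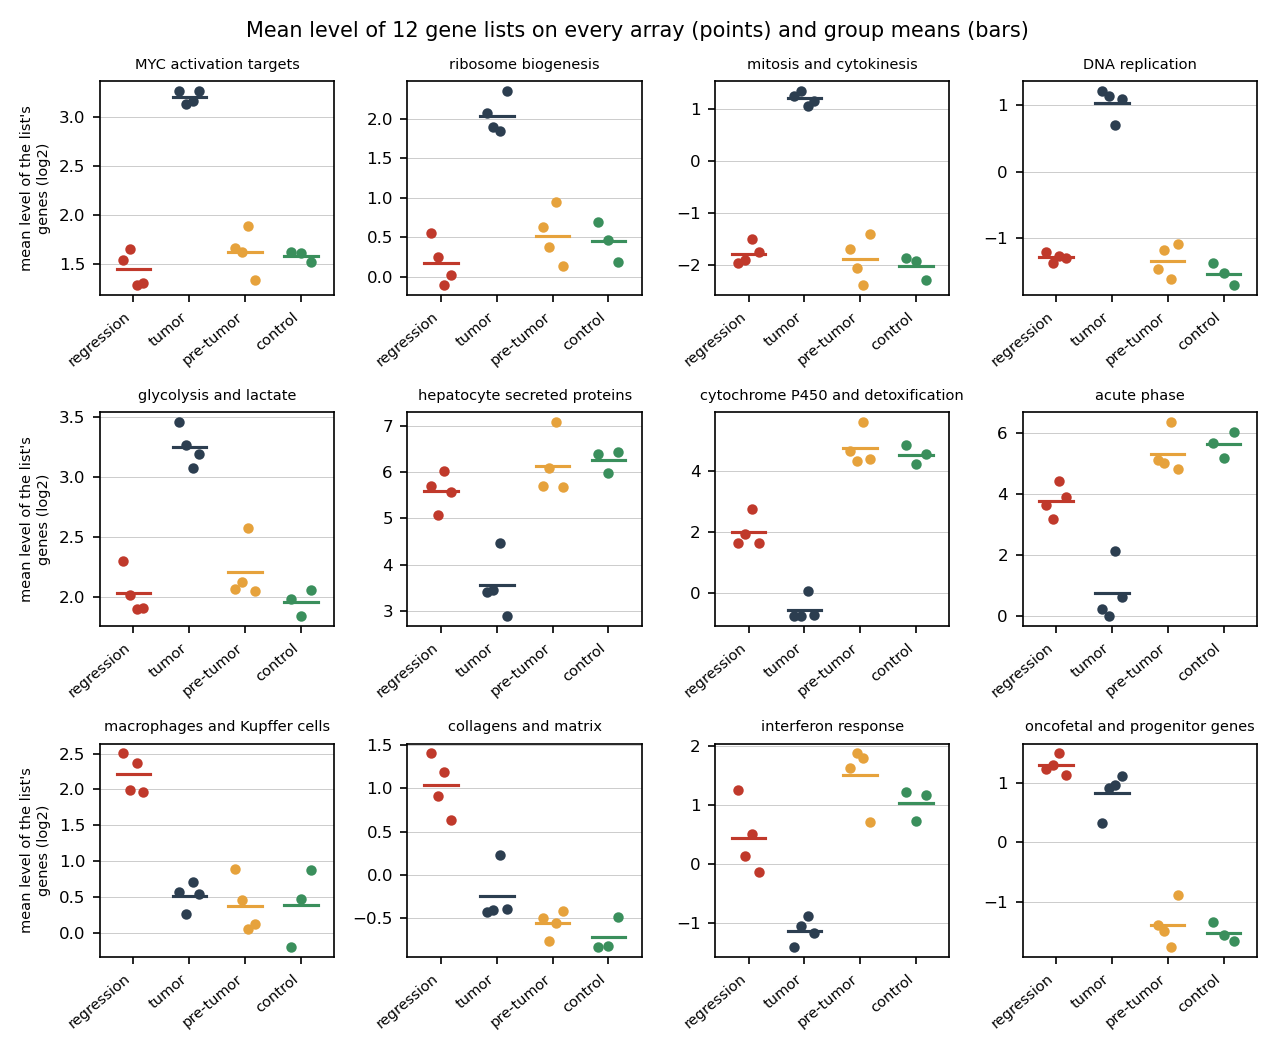
Mean level of the measured members of 12 gene lists (log2 over the 75th percentile of the array) in regressing tumors, tumors, pre-tumor livers and control livers, with 1 point per array and a bar at the group mean. The mitosis list lies at -1.95 to -1.50 in regressing tumors and 1.06 to 1.35 in tumors, the P450 list at 1.63 to 2.75 in regressing tumors, between tumors and both kinds of liver, and the macrophage list at 1.97 to 2.51 in regressing tumors, above all other arrays.

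Bile acid genes were 12 higher and 0 lower of 25. Slc27a5, the ligase that activates bile acids, read 2.99, 3.79, 3.73 and 2.85 in regressing tumors, against -1.29, -1.06, -1.13 and -1.05 in tumors (adjusted p = 9.46e-06), and the uptake transporter gene Slco1b2 differed by 3.57 ± 0.43. Cyp7a1, the rate-limiting enzyme of bile acid synthesis, was at -1.64, -0.32, -0.80 and -1.44 in regressing tumors and at -2.05, -2.76, -4.01 and -3.06 in tumors. These did not overlap, but the difference of 1.92 ± 0.69 did not pass (adjusted p = 0.0708). Of 27 urea cycle and amino acid genes 11 rose and 0 fell, and the count was 7 with the slide as a block or without tumor 4 or regressing tumor 2 or 3. Uroc1, of histidine breakdown, was at 4.44, 4.89, 5.24 and 4.90 in regressing tumors and at 0.48, 0.86, 3.67 and 0.06 in tumors, with tumor 3 well above the other tumors (adjusted p = 0.000916). Aass, of lysine breakdown, rose by 3.10 ± 0.61. Fat oxidation genes were 6 higher and 1 lower of 25 (2 lower without tumor 4, 0 without tumor 1 or 2 or regressing tumor 2, 3 or 4), and the peroxisomal enzyme gene Ehhadh rose by 3.34 ± 0.57. Of 19 fat synthesis genes 5 rose and 0 fell, a count that dropped to 1 without tumor 1, tumor 3 or regressing tumor 2, to 2 without regressing tumor 3, and to 3 without tumor 4 or regressing tumor 1 or with the slide as a block, and 0 to 3 fell over all alternatives. Insig2, which holds back sterol-driven transcription, read 0.65, 1.02, 1.16 and 1.61 in regressing tumors and -1.26, -1.41, -1.40 and -1.42 in tumors (adjusted p = 4.18e-05).

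Of 22 cholesterol genes 4 fell, 0 rose and 18 did not pass. Fdft1 was among the fallen, but it had probes called in opposite directions. As the mean of its probes the difference of Fdft1 was 0.20 and did not pass. Another of the 4 kept its call under only 12 of 21 alternatives. The isomerase gene Idi1 differed by -2.34 ± 0.62, but without regressing tumor 4 by -2.05 (adjusted p = 0.0528) and after normexp correction by -0.97 (adjusted p = 0.0655). The count of 4 was 2 without regressing tumor 1, and 1 without regressing tumor 4, when 1 gene was higher. Liver transcription factors were 2 higher and 1 lower of 24, beside 8.36% higher and 8.49% lower among all genes. Their higher count was 1 when any array but tumor 3 was left out, and 1 to 5 over all alternatives. Their lower count was 0 without tumor 1. Hnf4a, the central factor of the hepatocyte, read 2.09, 2.58, 2.09 and 1.47 in regressing tumors, against 2.54, 2.48, 2.69 and 1.79 in tumors and 3.93, 3.16 and 3.98 in control livers, and did not pass (-0.32 ± 0.37, adjusted p = 0.714). The xenobiotic receptor gene Nr1i2 rose by 1.61 ± 0.41. Of 18 genes known for sex-biased expression in liver 8 rose and 0 fell, and they were of both kinds. The female-biased P450 gene Cyp3a41a was at 2.69, 2.99, 3.61 and 3.34 in regressing tumors and at -0.94, -0.50, -0.29 and -0.39 in tumors, 3.69 ± 0.37 apart. The male-biased gene Cyp4a12a was at 4.01, 4.46, 4.55 and 3.28 in regressing tumors and at 1.63, 2.24, 1.53 and 1.15 in tumors, 2.44 ± 0.38 apart, again without overlap. None of 5 sex chromosome genes passed, and Xist, which silences the second X chromosome in females, was at -0.65 ± 0.85 (adjusted p = 0.748).

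Of 30 genes of the fetal liver and of liver tumors 5 rose and 1 fell, beside 8.36% higher and 8.49% lower among all genes. Afp, alpha-fetoprotein, read 9.31, 9.10, 9.74 and 9.39 in regressing tumors, against 7.23, 7.82, 7.02 and 6.94 in tumors, -4.76, -2.06, -2.49 and -4.92 in pre-tumor livers and -4.85, -4.85 and -3.93 in control livers. Regressing tumors were the highest, 2.13 ± 0.55 above the tumors (adjusted p = 0.0139), and 2 of the pre-tumor livers and no control liver had it well above background. H19, an imprinted RNA of fetal tissue, was at 9.06, 9.22, 9.81 and 9.25 in regressing tumors and at 9.17, 10.15 and 8.69 in the 3 tumors with a value. These overlapped, with a mean difference close to 0 (adjusted p = 0.999), and pre-tumor livers were at -1.18, 0.11, 1.62 and -1.36 and control livers at -1.76, -0.87 and -1.66. Igf2, the fetal growth factor beside H19, read 7.46, 7.91, 8.23 and 7.24 in regressing tumors, against 7.27, 6.21, 7.99 and 5.46 in tumors and -2.96, -2.43, -1.56 and -1.68 in pre-tumor livers, and did not pass between the first 2 (0.98 ± 0.52, adjusted p = 0.258). Gpc3, a cell surface proteoglycan of fetal liver and liver cancer, was at 2.01, 2.01, 2.06 and 0.15 in regressing tumors and at -4.93, -4.96, -1.94 and -2.26 in tumors. All 4 regressing tumors and only 1 tumor had it well above background, regressing tumor 4 was the lowest of its group, and the fitted difference, 5.08 ± 0.88 (adjusted p = 0.000956), was 1.55 after normexp correction. The imprinted noncoding RNA Meg3 read 3.21, 3.01, 3.59 and 3.79 in regressing tumors, against -0.57, -0.72, 0.80 and 0.14 in tumors, -1.32 to -0.23 in pre-tumor livers and -1.32 to -0.99 in control livers, above all other arrays in regressing tumors alone (3.48 ± 0.38, adjusted p = 2.59e-05). Cldn6, a fetal tight junction protein, was the gene that fell, at 1.16, 0.04, 0.80 and 1.09 in regressing tumors and 3.61, 4.07, 1.98 and 4.33 in tumors (adjusted p = 0.003); the count of fallen genes was 4 without tumor 3 and 2 without regressing tumor 1 or 2, and 1 to 6 over all alternatives.

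In the growth factor axis of the liver, 4 of 17 genes rose and 1 fell (2 without tumor 4), 2 to 8 and 1 to 3 over all alternatives. Igf1, the growth factor of the mature liver, was at 7.67, 7.67, 8.05 and 7.02 in regressing tumors and at 5.00, 4.77, 5.19 and 4.21 in tumors, a difference of 2.81 ± 0.38 (adjusted p = 0.000161), and pre-tumor livers were at 8.25, 8.00, 9.48 and 7.73. Igf2r, which clears IGF2, read 3.20, 2.69, 2.32 and 2.95 in regressing tumors, against 4.25, 4.81, 3.86 and 4.05 in tumors, and fell by 1.45 (adjusted p = 0.00612). The growth hormone receptor gene Ghr rose by 1.99 ± 0.43, although the mean of its 5 probes (0.96) did not pass.

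Genes of macrophages were higher in regressing tumors. Of 30 measured genes 19 rose and 0 fell, with a median of 1.93. Csf1r, the receptor on which macrophages depend, read 4.72, 4.25, 4.59 and 3.30 in regressing tumors, against 1.62, 1.39, 2.74 and 1.07 in tumors, 1.83, 1.32, 1.17 and 1.21 in pre-tumor livers and 1.06, 1.68 and 2.32 in control livers. All regressing tumors were above all other arrays, by 2.51 ± 0.42 over the tumors (adjusted p = 0.000756). Tyrobp, a signalling adaptor of myeloid cells, was at 6.81, 5.86, 6.02 and 5.93 in regressing tumors and at 4.08, 3.86, 3.46 and 3.55 in tumors (adjusted p = 0.000495), and the mannose receptor gene Mrc1 and Cd5l rose by 2.24 ± 0.42 and 2.12 ± 0.41. Cd68 read 5.24, 4.36, 4.55 and 4.20 in regressing tumors and 2.88, 2.84, 3.96 and 2.07 in tumors, a difference of 1.65 ± 0.44 (adjusted p = 0.0161). It was 1.36 without tumor 4, 1.44 without regressing tumor 1 and 1.64 with median centring, and did not pass then (adjusted p = 0.0565, 0.0541 and 0.0517). The summed linear level of 7 macrophage markers (Cd68, Csf1r, Adgre1, C1qa, C1qb, Clec4f and Vsig4) was 82.6 to 186 in regressing tumors, against 18.9 to 62.0 in tumors, 13.5 to 27.6 in pre-tumor livers and 11.9 to 26.1 in control livers, and 5 of the 7 rose, while Clec4f (1.44, adjusted p = 0.189) and Vsig4 (1.54, adjusted p = 0.212) of Kupffer cells did not pass. Of 30 lysosome and phagocytosis genes 21 rose and 0 fell, with Mertk, a receptor for dying cells, at 2.91, 2.02, 1.77 and 2.04 in regressing tumors and -0.19, -0.22, 0.11 and 0.00 in tumors (adjusted p = 0.00023), and with the cathepsin genes Ctsh and Ctsc higher by 2.32 ± 0.36 and 2.17 ± 0.35. The macrophage marker sum moved with this list, and its part in the result was not tested.

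Ptprc, the CD45 of all leukocytes, read 1.48, 1.42, 0.31 and 0.46 in regressing tumors, against -1.75, -1.50, -0.86 and -0.98 in tumors, and rose by 2.19 ± 0.42 (adjusted p = 0.00187). Of 26 T and NK cell genes 8 rose and 0 fell. Cd3g, of the T cell receptor complex, was at 1.72, 0.72, 0.54 and 0.94 in regressing tumors and at -0.95, -0.85, -1.17 and -1.06 in tumors, near the pre-tumor livers at -1.23 to -0.64 and the control livers at -0.89 to -0.71, and differed by 1.99 ± 0.30 (adjusted p = 0.000326). Il2rb and Nkg7, of cytotoxic lymphocytes, rose by 2.01 ± 0.32 and 2.07 ± 0.37. Of the defining markers of T and NK cells, Cd3d, Cd3e, Cd3g, Cd2 and Nkg7 rose, and Cd8a did not pass (0.73, adjusted p = 0.481). Of 14 B cell genes 2 rose, beside 8.36% higher among all genes. That count was 1 without tumor 4 or with the slide as a block, and 0 without tumor 1 or 2 or regressing tumor 1, 2 or 3. The summed level of 4 defining markers of B cells was 2.00 to 4.29 in regressing tumors and 2.30 to 4.17 in tumors. Of 16 neutrophil genes 2 rose, 1 of them Lcn2, which hepatocytes make too, and 1 rose without tumor 1 or 4 or any 1 regressing tumor, with 1 to 8 over all alternatives. The neutrophil calprotectin gene S100a8 was well above background in 4 regressing tumors and no tumor but did not pass (adjusted p = 0.0703). Antigen presentation genes were 13 higher and 0 lower of 18. Cd74, the chaperone of MHC class II, read 6.17, 5.04, 5.17 and 4.04 in regressing tumors, against 2.17, 2.34, 1.68 and 0.52 in tumors, 2.65, 3.07, 0.98 and 0.67 in pre-tumor livers and 0.32, 1.47 and 3.20 in control livers, and rose by 3.42 ± 0.68 (adjusted p = 0.00254). The class I gene H2-Q7 was at 6.37 to 7.48 in regressing tumors and at 3.67 to 4.78 in tumors, and H2-K1 at 4.17 to 5.86 in regressing tumors and at 2.17 to 3.88 in tumors. They rose by 2.68 ± 0.40 and 2.52 ± 0.48, and probes of this family may read each other.

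Interferon response genes were 13 higher and 0 lower of 29. Iigp1, an interferon-induced GTPase, was at 0.81, 0.64, 0.84 and 0.96 in regressing tumors and at -4.93, -5.11, -3.05 and -2.50 in tumors, where only tumor 4 had it well above background, and it rose (adjusted p = 0.000177). Its fitted difference was 4.71 ± 0.65, and 1.14 after normexp correction. Irf9, which carries the type I interferon signal, differed by 1.68 ± 0.35. The count of 13 was 8 with median centring, 6 with the slide as a block or after normexp correction, 7 without tumor 1, tumor 2 or regressing tumor 3, 6 without regressing tumor 1 and 8 without regressing tumor 2. The mean level of the list was -0.12 to 1.26 in regressing tumors, against -1.40 to -0.88 in tumors, 0.72 to 1.88 in pre-tumor livers and 0.73 to 1.22 in control livers. Of 25 chemokine and receptor genes 7 rose and 0 fell. Ccl9, a myeloid chemokine of the mouse, read 5.45, 5.17, 4.98 and 5.37 in regressing tumors and 0.54, 0.77, 1.60 and -0.03 in tumors, a difference of 4.52 ± 0.38 (adjusted p = 5.31e-06). Cxcr4, the receptor of CXCL12, was at 3.67, 3.08, 2.49 and 4.03 in regressing tumors, -0.11 to 1.36 in tumors and -1.87 to -0.17 in pre-tumor livers, and Cxcl16 rose by 2.66 ± 0.43.

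Vessel and connective tissue genes were higher in regressing tumors too. Of 25 endothelial genes 14 rose and 0 fell, and all 25 differences were positive. Stab1, a scavenger receptor of sinusoidal endothelium, read 1.44, 1.44, 1.08 and 0.89 in regressing tumors, against -1.11, -1.45, -1.02 and -1.00 in tumors, and the junction gene Cdh5 and the angiopoietin receptor gene Tek rose by 2.22 ± 0.33 and 2.23 ± 0.34. For Stab1 no tumor reached a regressing tumor (2.36 ± 0.32, adjusted p = 0.000167). The summed level of 5 endothelial markers was 5.73 to 11.9 in regressing tumors and 2.11 to 3.52 in tumors, against 8.64 to 16 in pre-tumor livers and 4.72 to 10.1 in control livers. Of these markers Pecam1, Cdh5, Kdr and Stab2 rose, Stab2 with an adjusted p of 0.0485. Clec4g did not pass (0.96, adjusted p = 0.310). Of 23 stellate cell and fibroblast genes 11 rose and 0 fell. Pdgfrb, the receptor that marks stellate cells, was at 2.52, 1.57, 1.51 and 1.86 in regressing tumors, against -1.23, -0.70, -0.43 and -0.79 in tumors and -2.36, -1.40, -2.01 and -1.08 in pre-tumor livers (adjusted p = 0.00122). Colec11 and Cygb, which quiescent stellate cells express, rose by 2.86 ± 0.46 and 2.36 ± 0.40, and the proteoglycan gene Lum, seen in no tumor, was at least 6.85-fold higher in regressing tumors. Lrat, which stores retinol in stellate cells (0.52, adjusted p = 0.75), and Des, desmin (0.46, adjusted p = 0.542), both among the defining markers of stellate cells, did not pass, and Lrat was well above background in 1 tumor.

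Of 37 collagen and matrix genes 19 rose and 0 fell. Col3a1, fibrillar collagen III, read 6.79, 6.81, 5.93 and 5.12 in regressing tumors, against 3.65, 3.96, 3.33 and 3.32 in tumors, 1.08, 2.37, 1.73 and 0.89 in pre-tumor livers and -0.11, 0.86 and 0.62 in control livers. The order of the groups was thus regressing tumors, tumors and non-tumor livers, with 2.60 ± 0.43 between the first 2 (adjusted p = 0.000684). The protease gene Mmp2 was at 1.47, -0.17, 0.20 and -1.27 in regressing tumors and at -3.36, -3.39, -3.25 and -3.46 in tumors, the inhibitor gene Timp3 rose by 2.29 ± 0.35, and Ccn2, a matrix growth factor, by 2.22 ± 0.38. The stellate and fibroblast marker sum, mostly collagen, was 50.3 to 172 in regressing tumors, against 16.9 to 25.6 in tumors, 8.10 to 15.9 in pre-tumor livers and 4.85 to 13.8 in control livers. Of 14 bile duct genes 2 rose, beside 8.36% higher among all genes. They were Tff3, a mucosal peptide, higher by 3.08 ± 0.44, and Spp1, osteopontin, seen in no tumor and at least 2.78-fold higher. Krt19, Krt7, Epcam and Sox9, the 4 defining duct markers, did not pass, and their sum was 3.17 to 4.08 in regressing tumors and 2.51 to 3.93 in tumors. Erythroid genes were 5 higher and 0 lower of 10, with Alas2, of heme synthesis, at 0.66, 0.35, 1.14 and -0.22 in regressing tumors and -1.90, -2.28, -0.63 and -2.12 in tumors (adjusted p = 0.00204), and the count was 3 with the slide as a block and without tumor 1 or 2 or regressing tumor 1 or 3. The sum of 3 erythroid markers was 122 to 427 in regressing tumors and 19 to 213 in tumors. The part that these cell types have in the gene lists named beside them was not tested.

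Among all genes 8.36% were higher and 8.49% lower, and the lists that follow are to be read beside these shares. Unfolded protein and amino acid stress genes were 3 higher (1 without tumor 1 or 2 or regressing tumor 4 or with median centring, 1 to 6 over all alternatives) and 1 lower of 23, with the stress regulator gene Nupr1 at 3.84, 3.28, 2.98 and 3.10 in regressing tumors and 0.80, 1.29, 0.54 and 1.37 in tumors (adjusted p = 0.000682). Hypoxia and angiogenesis genes were 3 higher and 2 lower of 24, with the prolyl hydroxylase gene Egln3 lower, at -0.62, -2.17, -3.01 and -3.20 in regressing tumors and 1.30, 1.07, -0.20 and 1.25 in tumors (adjusted p = 0.000631), and Angpt2 higher, by 1.41 ± 0.36. Without tumor 3, 6 genes of that list were higher, and 2 to 7 over all alternatives. Immediate early and heat shock genes were 4 higher and 2 lower of 20, and the chaperone gene Hsp90aa1 fell to 3.69, 3.01, 2.99 and 3.78 in regressing tumors, against 5.96, 6.23, 5.10 and 5.98 in tumors (adjusted p = 0.00166). The higher count of that list was 2 without tumor 4 or regressing tumor 2 or 4, and the lower count was 1 with the slide as a block, with median centring or without any 1 array but regressing tumor 4. Of 17 clock genes 1 rose (0 without tumor 1 or 2 or regressing tumor 2, 3 or 4, with the slide as a block or with median centring) and 0 fell. Glutathione genes were 3 higher and 2 lower of 16 (6 higher without tumor 3, 1 without regressing tumor 3 or with median centring, 1 to 8 over all alternatives), with Gsr, glutathione reductase, lower by 1.76 ± 0.34 and Ggt1, which breaks glutathione down and is high in fetal liver, by 2.08 ± 0.46. Wnt target and zonation genes were 5 higher and 1 lower of 19. The 5 included Cyp2f2, Sds, serine dehydratase of periportal cells (3.01 ± 0.68), and the P450 gene Cyp1a2. Cyp1a2 kept its call under 14 of 21 alternatives, with differences of 0.88 to 2.85. The count of 5 became 2 without tumor 1 or regressing tumor 2 or 3. It was 3 with the slide as a block or without tumor 2, 3 or 4. The gene that fell was Znrf3, which passed under 12 of the 20 alternatives that measured it. The lower count was 0 with the slide as a block or without tumor 2 or 4 or regressing tumor 1 or 4.

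Several of the largest differences lay outside these lists. Vnn3, a pantetheinase, read 3.50, 3.67, 2.95 and 3.44 in regressing tumors, against -5.20, -3.12, -0.98 and -2.62 in tumors, 1.27, 0.28, 1.23 and 0.01 in pre-tumor livers and 0.42, -0.39 and 0.05 in control livers. The regressing tumors were above all other arrays, and the tumors the lowest and most spread group, 82.7-fold apart (adjusted p = 1.18e-05). Vnn3 was well above background in only 2 tumors, and its difference of 6.37 was 3.12 after normexp correction. A2m, a protease inhibitor of plasma, was at 4.94, 4.57, 4.96 and 4.44 in regressing tumors and at -0.59, -0.25, -0.87 and -1.88 in tumors, against -3.82, -3.41, -4.71 and -2.87 in pre-tumor livers and -2.75, -3.08 and -2.98 in control livers (adjusted p = 1.87e-06). The aldo-keto reductase gene Akr1b7 was at 2.26, 3.42, 1.88 and 3.44 in regressing tumors and at -4.80, -3.44, 0.21 and -1.75 in tumors, while control livers were at -1.80, -2.63 and -0.40, below every regressing tumor. Pla1a, a phospholipase, gave 4.55, 4.40, 4.00 and 4.47 in regressing tumors and -0.92, -0.76, 0.13 and -1.76 in tumors, a difference of 5.19 ± 0.39 (adjusted p = 1.98e-06), with control livers between them at 1.84 to 2.03. Rdh7, a retinol dehydrogenase, and the serine protease inhibitor genes Serpina3c and Serpina3k rose by 5.47 ± 0.55, 5.32 ± 0.52 and 5.20 ± 0.45, to levels below every non-tumor liver. Dkk3, a secreted protein of the Dickkopf family, was seen in no tumor and was at least 7.01-fold higher in regressing tumors. Among the falls, Sfmbt2, a Polycomb-group gene, read -1.74, -0.94, -1.06 and -0.97 in regressing tumors, against 3.14, 2.91, 3.31 and 3.02 in tumors, -1.30, -1.81, -2.35 and -0.55 in pre-tumor livers and -1.40, -0.81 and -1.69 in control livers (adjusted p = 5.31e-06). Its tumors were close together and far above all other arrays, and the regressing tumors lay within the range of the pre-tumor livers. Shcbp1, which acts at the end of cell division, and Knstrn, of the spindle, fell by 4.48 and 4.21 on the log2 scale.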

How the data were processed

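RNA of 15 mouse livers and liver tumors was amplified, labelled with Cy3 and hybridised to Agilent 4x44K arrays, per the labels. The scans were read by Feature Extraction 10.5.1.1, per the file headers, and the deposited processed signal is a background-subtracted intensity on a linear scale. The authors also deposited a table of log2 values, and how it was normalized is not given in the sources used here. The values used here are log2 of the processed signal minus the 75th percentile of the array, so a level is relative to its own array, and spots marked as outliers were left out. Of 41174 probes 34908 had a gene symbol, and 29926 of these passed the filter on dim probes (well above background on 3 or more arrays). The probe with the highest mean stood for each of 19233 genes, and symbols were updated through the RefSeq gene table for 4664 of 21335 genes. Fits used limma 3.58.1 in R 4.3.3 (lmFit and eBayes, 4 groups, 15 arrays, 11 residual degrees of freedom, Benjamini-Hochberg over all genes). An adjusted p marked "over all probes" is from a fit by probe. Every other adjusted p is from the fit by gene or from the alternative named beside it. A gene above background on every array of 1 group and on none of the other has a bound, the mean of the bright group over the dim group's mean of, per array, the higher of its own signal and the lowest signal well above background. Genes named are the 10 largest non-overlapping changes and the 4 largest bounds each way, up to 4 genes of each list by adjusted p, and a set of fixed genes; marker genes are also named, and a few genes that the rule names are not reported here. Members and lists were chosen with earlier results of these data known. Background correction by normexp was planned on the mean signal and was run on the median signal, the one used here. On simulated data 55% of 100 4-fold and 2% of 100 2-fold changes were recovered, with 5 false calls. Only those of the 19233 genes were changed there, a smaller share than the 16.8% called here, so recovery in these data may differ. Intensity on 4 arrays a group limits the precision. Alternatives were other background corrections, normalizations, filters, probe rules, blocks, variance models and array weights, and each array left out. Probe coordinates are of mm9, per the file headers.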

Additional observations from a re-analysis of the deposited data

Results flagged for a closer look

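In 38 of 519 groups of 4 arrays tested over the 176 genes named (7.32%), 1 array stood far from the other 3 by Dixon's test, which flags about 1 group in 20 by chance. Tumor 3, the array with the fewest spots above background, held 13 of them, more than any other array. It was low for Aunip (-0.08, the others 0.52 to 0.56), Aurkb (-1.26), Egln3 (-0.20), Odc1 (3.31), Pkm (3.94), Rpl14 (1.11), Slc1a5 (2.17) and Tyms (0.63). The same array was high for Cp (3.83, the others 0.29 to 0.75), Hmga1 (5.55), Nhp2 (4.81), Npm3 (5.54) and Phgdh (4.35), so its flags ran in both directions. Tumor 4 was low for Ccnd1 (0.48) and Mki67 (1.27), tumor 1 high for Insig2 (-1.26) and low for Irf9 (0.33), and tumor 2 high for Xist (-0.52). Among regressing tumors, number 1 was high for Dkc1 (-3.21) and Tyrobp (6.81) and low for Sfmbt2 (-1.74), number 3 high for Aurkb (-5.01) and Hmgb2 (1.46), and number 4 high for Cdkn1b (3.70) and low for Eif2b1 (-0.88) and Gpc3 (0.15, the others 2.01 to 2.06). Pre-tumor liver 3 held 9 flags, high for Bhmt (7.97), Eno1 (3.89), Itih1 (3.89), Pklr (4.95) and Serpina3k (9.90), and low for Asns (-0.91), Ccne2 (-1.98), Cldn6 (-1.55) and Mcm5 (-3.42). Pre-tumor liver 1 was high for Cdkn1a (1.66) and low for Uhrf1 (-1.60), and pre-tumor liver 4 low for Max (-0.85).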

How the results depend on the processing

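The count of 3240 genes stayed within 1.5 times under 20 of the 21 alternatives, between 2350 and 3835, and was 5397 with array weights (2607 higher and 2790 lower). Leaving out 1 array gave 2413 to 3093 genes, with 1198 to 1523 higher and 1180 to 1570 lower, and no gene was called in opposite directions by the fit reported and any of the alternatives. The share of higher genes was 49.6%, and 44.5% to 53.6% over the alternatives. With the replicate block 1799 genes were higher and 1848 lower. In the labels, same-numbered arrays are linked by the number alone, and whether they share a source is not known. The correlations of their deviations from the group means were 0.13, -0.046, 0.24 and 0.092, and 5 of the 8 arrays correlated best with their own number. With the slide as a block 1241 genes were higher and 1176 lower. Of the named genes called, 164 kept their call under all 21 alternatives. Values whose sign turned were, as the mean of the gene's probes, Mlx (0.040), Fdft1 (0.20), Pygl (-0.57), Myc (-0.78) and H19 (0.27), among which Fdft1, of cholesterol synthesis, and Pygl, of glycogen breakdown, had been called. Max was between -0.31 and 0.051 with 1 array left out. H19, whose difference lay near 0, was 0.034 with median centring, 0.058 with outlier spots kept, 0.18 with the slide as a block, 0.15 with the replicate block, 0.17 with array weights, and -0.33 to 0.40 with 1 array left out. The cause of these moves was not tested, beyond that the 3 Myc probes disagree. Probes near background set the limit: on tumor 3, the dimmest array, 46.4% of spots were well above it.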
